A study of Mus musculus with 17 samples.

Results

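The chaperone and heat shock protein genes were followed as a set of 84 genes out of 21887 protein-coding genes annotated outside the mitochondrial genome. Its members were taken by symbol alone, and the set itself was chosen with earlier results of these data known. The set held 14 Hsp70 and Hsp110 genes, 3 Hsp90 genes, the Hsp60 and Hsp10 genes Hspd1 and Hspe1, 10 genes of the CCT ring, 8 small heat shock protein genes, 4 Dnaja, 13 Dnajb and 28 Dnajc genes, and 2 genes named for binding heat shock proteins, Hspbp1 and Hspbap1. A choice by symbol also takes in genes of other function, such as Hspb11, which encodes a protein of intraflagellar transport.

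The assay was ChIP-seq for RNA polymerase II, in which DNA bound by the polymerase is recovered with an antibody and sequenced, and the cells were macrophages grown in culture from mouse bone marrow. The cells were wild type (WT) or N4bp1 KO, and the labels do not say which stretch of N4bp1 the knockout lacks. They were left untreated or given R837 (imiquimod, an agonist of the RNA sensor TLR7) for 2, 4 or 6 h, so that 8 groups of 2 libraries resulted. The labels do not say whether replicates were separate cultures or animals, and p-values therefore measure only the spread between these libraries.

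Chaperones bind unfolded or partly folded proteins and release them, mostly in cycles driven by ATP. Hsp70 proteins take their clients from J-domain proteins (the Dnaj genes), Hsp90 proteins act on clients that are nearly folded, and the CCT and Hsp60 rings enclose the client. Many of these genes are transcribed at a high level in unstressed cells, others are induced through heat shock factors, and those of the endoplasmic reticulum are induced through the unfolded protein response. Macrophages that secrete cytokines rely on the endoplasmic reticulum chaperones to fold them.

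Each library was a list of polymerase summits, which are single positions of highest signal within a peak. A gene's value was the rank of its best summit, meaning the summit with the highest deposited score, within the gene or 1 kb to either side of it. Because the shortest list held 8394 summits, only that number of best summits was used from each. For tests the rank was put on a log2 scale, the rank score, which is 0 where no summit was found and reaches 13.04 for the top summit of a list. A difference of 1 in rank score is a factor of 2 in rank. A rank places a gene among the summits of its own library and does not measure how much polymerase was bound, and read depth is unknown.

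The lists held 20607 to 24720 summits in untreated and 8394 to 29760 in treated libraries before they were shortened. The shortened lists placed a summit at 6430 to 6689 genes in untreated and at 2693 to 5885 in treated libraries, so that a lower rank score after R837 was common to genes at large. Codes in the peak names put the untreated and 2 h libraries in 1 series, the 4 h libraries in another and the 6 h libraries in yet another, and time and code series cannot be told apart for 4 h and 6 h. Replicate 2 of KO at 6 h stood apart, with a top score of 563.5 against at most 320.4 elsewhere. Of 10 macrophage marker genes, 9 held a summit in every untreated list and 7 to 9 in each treated list. Markers of T and NK cells, neutrophils and stroma held a summit at no more than 1 gene of a list in any library, those of B cells and erythroid cells at none, and those of dendritic cells at 1 or 2 of 5.

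Promoters of 69 of the 84 genes were available from RefSeq (GRCm38.p6). The 250 bases before the transcript start are printed for Hspa5 and Hsp90b1 because they carry an endoplasmic reticulum stress element, for Dnajb9 as an endoplasmic reticulum gene without it, and for Dnaja1 and Hspa1b because they carry a repeat of the heat shock element. Hspa5 lies at chr2:34771840-34772089 on the plus strand, Hsp90b1 at chr10:86705445-86705694 on the minus strand and Dnajb9 at chr12:44210069-44210318 on the minus strand. Dnaja1 lies at chr4:40722218-40722467 on the plus strand, where it is the first of 3 annotated starts, and Hspa1b at chr17:34959239-34959488 on the minus strand. Each sequence reads 5′ to 3′ towards the gene. Capitals mark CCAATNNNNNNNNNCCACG or its reverse complement in Hspa5 and Hsp90b1, CCAAT or its reverse complement in Dnajb9 and Hspa1b, and GAANNTTC in Dnaja1 and Hspa1b.
Hspa5: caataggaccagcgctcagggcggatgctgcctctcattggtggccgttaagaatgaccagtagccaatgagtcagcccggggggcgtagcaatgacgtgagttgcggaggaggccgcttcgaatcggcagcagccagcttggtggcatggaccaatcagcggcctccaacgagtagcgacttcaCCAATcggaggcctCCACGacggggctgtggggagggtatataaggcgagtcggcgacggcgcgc
Hsp90b1: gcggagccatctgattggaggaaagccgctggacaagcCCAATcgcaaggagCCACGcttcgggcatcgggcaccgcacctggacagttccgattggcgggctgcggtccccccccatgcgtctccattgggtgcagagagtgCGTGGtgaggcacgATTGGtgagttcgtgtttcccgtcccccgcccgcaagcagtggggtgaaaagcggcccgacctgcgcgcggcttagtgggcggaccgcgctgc
Dnajb9: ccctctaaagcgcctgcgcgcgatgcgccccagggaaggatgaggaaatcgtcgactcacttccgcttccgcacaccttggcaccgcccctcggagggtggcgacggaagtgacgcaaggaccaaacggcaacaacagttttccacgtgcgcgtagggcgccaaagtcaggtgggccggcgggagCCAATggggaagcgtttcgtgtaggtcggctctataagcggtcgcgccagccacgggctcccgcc
Dnaja1: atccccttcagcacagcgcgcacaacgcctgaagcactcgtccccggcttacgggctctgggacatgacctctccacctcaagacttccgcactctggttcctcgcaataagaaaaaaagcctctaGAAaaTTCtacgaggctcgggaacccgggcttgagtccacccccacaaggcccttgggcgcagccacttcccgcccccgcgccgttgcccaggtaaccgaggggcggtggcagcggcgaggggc
Hspa1b: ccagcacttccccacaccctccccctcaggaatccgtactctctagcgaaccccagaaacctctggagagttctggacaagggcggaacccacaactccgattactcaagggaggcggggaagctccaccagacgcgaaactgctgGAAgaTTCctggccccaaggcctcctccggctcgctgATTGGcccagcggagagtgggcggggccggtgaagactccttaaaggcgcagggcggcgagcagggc

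The letters of the endoplasmic reticulum stress element, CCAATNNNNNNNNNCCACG on either strand, occurred in 37 of 32851 promoters of this length (0.113%). Among the chaperone genes they occurred in Hspa5, Hsp90b1 and Dnajc3, all 3 of which encode chaperones or co-chaperones of the endoplasmic reticulum, and Hsp90b1 carried 2 copies. The head-to-head repeat GAANNTTC was found in 6.69% of all promoters and in 14 of the 88 promoters of the set, among them those of Hspa1a, Hspa1b, Hspb1, Dnaja1, Hspd1 and Hspe1. The tail-to-tail repeat TTCNNGAA was found in 7.17% of all promoters and in 9 of the 88, TATAAA in 12.4% and in 4, and CCAAT, which the longer element includes, in 33.8% and in 32. Genes with several starts have several promoters, and the 88 belong to 69 genes. All letters were searched on both strands. A match describes letters in this window and does not show that a factor binds there.

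Polymerase summits were found at chaperone genes more often than at genes in general. In untreated macrophages 43 to 53 of the 84 genes (51.2% to 63.1%) held a summit, against 29.4% to 30.6% of all genes. After R837 the range was 19 to 43 genes (22.6% to 51.2%), against 12.3% to 26.9% of all genes. A summit in at least 2 of the 16 libraries, the condition for testing, was met by 56 chaperone genes (66.7%) and by 8475 of all genes (38.7%). A further 4 genes, Dnajc24, Dnajc11, Dnajc2 and Dnajc12, held a summit in 1 library, and 24 held none. Every library showed a summit at 10 of the 84 genes (11.9%), against 5.10% of all genes. Genes without a summit included 7 of 14 in the Hsp70 and Hsp110 group, 4 of 8 small heat shock protein genes and 8 of 28 Dnajc genes. Several of them are stress-induced or expressed in few tissues. Among these were the inducible Hspa1a, Hsph1 (Hsp110, which exchanges the nucleotide of Hsp70), Hspb1 (Hsp27) and Hspa1l, a form of the testis. Other stress-induced genes did hold summits, Hspa1b in 15 libraries and Hsp90aa1 in 14, and Hsph1 held one in 7 of the deposited lists, past the cut. In the lists at their deposited length 70 genes held a summit in at least 1 library and 14 in none.

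**Figure D1:**
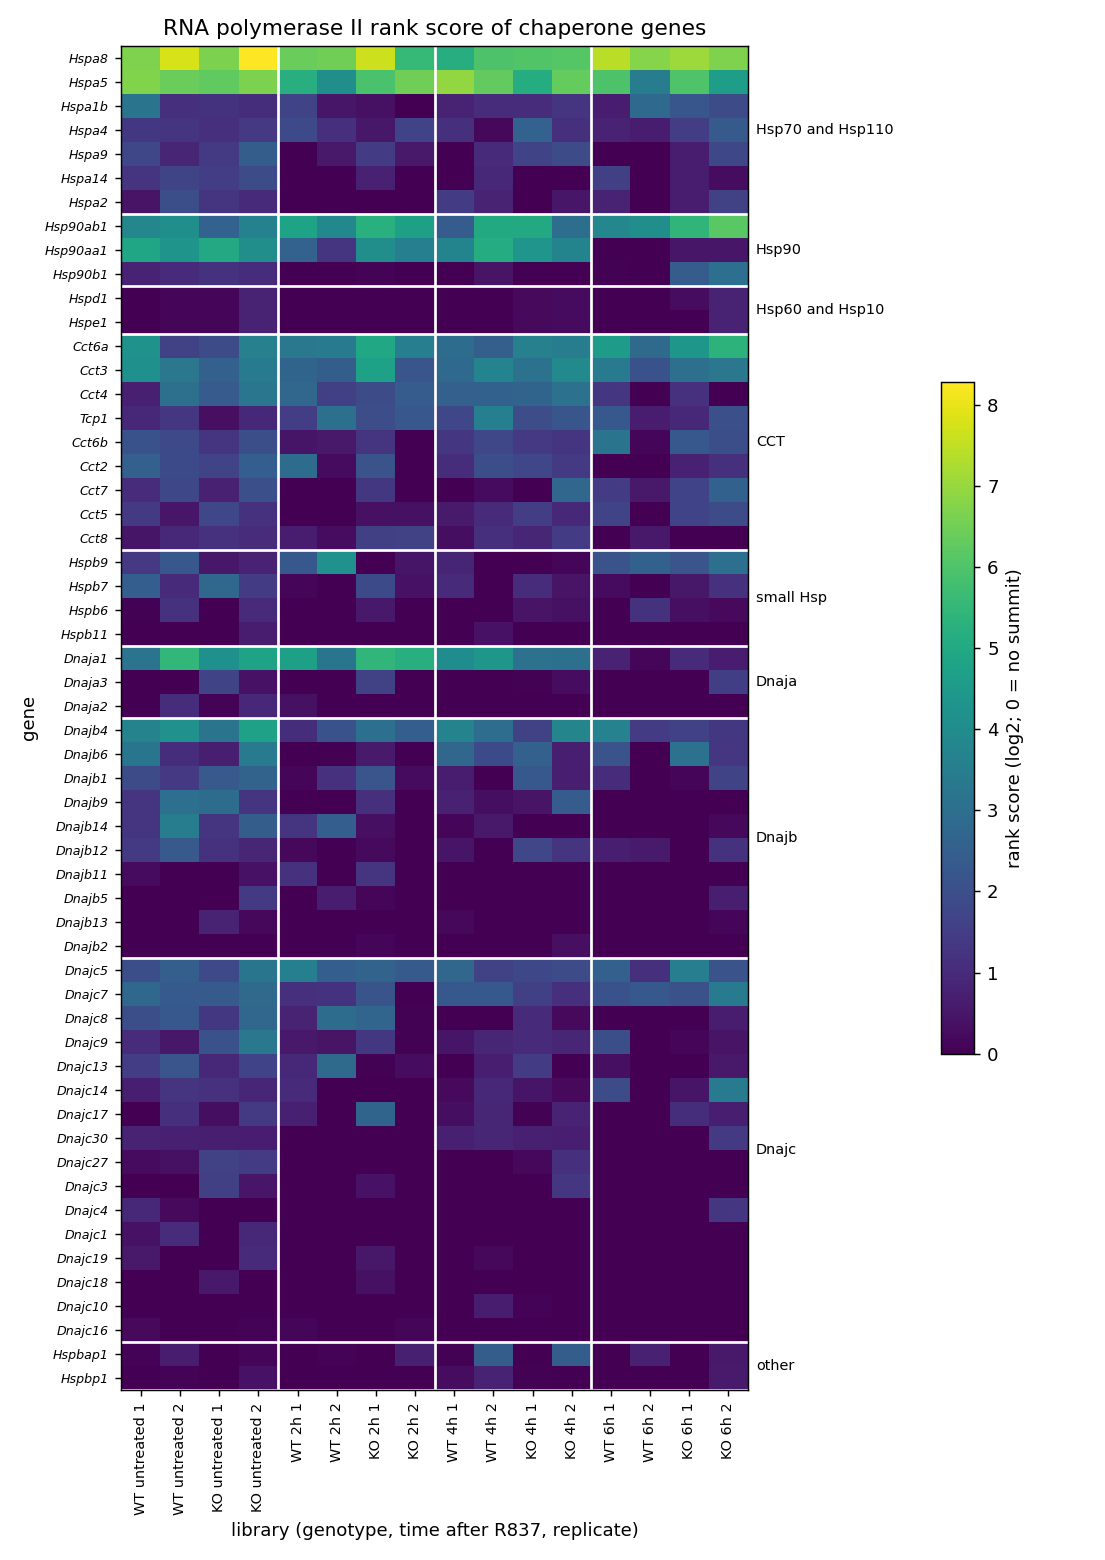
Rank score (log2, colour) of the 56 tested chaperone genes (rows, grouped by family) in each of the 16 libraries (columns). Hspa8 is bright in every column and Hspa5 in most, and Hsp90aa1 and Dnaja1 are dark in the 4 columns at 6 h. Hsp90b1 is brighter in both KO columns at 6 h (2.41 and 3.02) than in its other columns.

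Where a start was annotated, the best summit lay mostly at it. Of 48 tested genes with an annotated start, 40 had their best summit within 1 kb of a start in every library that held one, 2 (Hspb7 and Dnajb13) never did, and 6 did in some libraries. In untreated libraries 93.3% to 94.9% of the best summits of chaperone genes lay within 1 kb of a start (all genes 83.9% to 86.2%), and in treated libraries 68.8% to 94.1% did (all genes 60.8% to 82.8%). Many of these starts face another gene, and 26 of the 56 tested genes shared their best summit with another gene region in at least 1 library, 20 of them in every library that held one. The pairs included Hspd1 with Hspe1, whose products form the Hsp60 ring and its Hsp10 lid, Tcp1 with Mrpl18, Cct3 with Tsacc, Dnajb4 with Fubp1 and Hsp90b1 with Ttc41. A shared summit cannot be assigned to either gene.

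Hspa8 and Hspa5 held the highest ranks of the set. Hspa8 encodes Hsc70, the constitutive cytosolic Hsp70, and its best summit stood at ranks 82 and 38 in untreated WT and 83 and 27 in untreated KO. After R837 the ranks of Hspa8 ranged from 42 to 237 with a median of 97, and it was the 1 chaperone gene within the first 500 in all 16 libraries. Hspa5 encodes BiP, the Hsp70 of the endoplasmic reticulum, and stood at 81 and 101 in untreated WT and 109 and 83 in untreated KO. After R837 the ranks of Hspa5 ranged from 68 to 733 with a median of 137, the worst in replicate 2 of WT at 6 h. Treated and untreated libraries overlapped for both genes. The change over all treated libraries was −0.91 ± 0.45 for Hspa8 (SE, 12 against 4 libraries, adjusted p = 0.129, limma with Benjamini-Hochberg adjustment) and −0.95 ± 0.48 for Hspa5 (adjusted p = 0.134), and neither passed. At 4 h all 4 ranks of Hspa8, from 124 to 237, were below the untreated ones, with a change of −1.54 ± 0.55 that missed the threshold (limma, adjusted p = 0.0556). Of the set, 5 genes were within the first 1000 in all untreated libraries, namely Hspa5, Hspa8, Hsp90aa1, Dnaja1 and Dnajb4, and at this limit only Hspa5 and Hspa8 were in all 16.

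The other Hsp70 genes stood far lower. Hspa4, an Hsp110 that exchanges the nucleotide of Hsp70, lay at ranks 3221 to 3751 in untreated and 1369 to 7442 in treated libraries, with a change of 0.00 ± 0.37 (limma, adjusted p = 0.995). Hspa9, the Hsp70 of mitochondria, lay at 1556 to 4513 in untreated libraries and held a summit in 8 of 12 treated ones, with a change of −0.82 ± 0.36 that did not pass (adjusted p = 0.0894). Hspa14, an Hsp70 bound to the ribosome, was the only gene of this family to fall over all treated libraries. Its ranks were 3506, 2572, 2948 and 2287 in untreated libraries, and in 6 of 12 treated ones it held no summit. The change of Hspa14 was −1.24 ± 0.32 (limma, adjusted p = 0.00974), and its summit also lay in the region of Cdnf in each of the 10 libraries that held it.

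The inducible pair Hspa1a and Hspa1b are near-identical copies on chromosome 17, and reads from 1 may be placed at the other, so their values are uncertain. Hspa1b held a summit in 15 of 16 libraries, at ranks 929 and 3762 in untreated WT, 3618 and 3971 in untreated KO and 1170 to 6450 after R837. The change of Hspa1b was −0.46 ± 0.44 (limma, adjusted p = 0.44). All 15 summits lay between positions −346 and −239 relative to the annotated start, which for 14 of them is upstream of the printed window that holds the heat shock element repeat, and Hspa1a held no summit in the shortened lists. Among the Hsp70 and Hsp110 genes 0 of 7 tested rose and 1 (14.3%) fell over all treated libraries, against 5.77% and 29.4% of all genes, and their median change was −0.82 against −0.33.

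Of the 3 Hsp90 genes, Hsp90aa1 fell after R837 and the others did not pass over all treated libraries. Hsp90aa1 encodes the stress-inducible Hsp90 and lies at chr12:110691036-110696395. Untreated macrophages had it among the first 500, at ranks 279 and 434 in WT and 264 and 497 in KO. At 2 h the ranks of Hsp90aa1 were 1395 and 3436 in WT and 490 and 701 in KO, and at 4 h they were 625 and 239 in WT and 418 and 631 in KO. By 6 h neither WT library held a summit at Hsp90aa1 in its shortened list, and the KO libraries held it at 5956 and 5993. All 4 libraries at 6 h were thus below every other library, while 2 h and 4 h overlapped the untreated ones.

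Hsp90aa1 fell by 4.32 in rank score at 6 h, with an SE of 0.46 (4 against 4 libraries, limma, adjusted p = 3.28e-05). At 2 h the change was −1.67 ± 0.46 (limma, adjusted p = 0.0156), a call that was lost without replicate 2 of WT at 2 h or replicate 2 of KO at 2 h (highest adjusted p = 0.0681). At 4 h it was −0.33 ± 0.46 (adjusted p = 0.63), and over all treated libraries −2.11 ± 0.37 (adjusted p = 0.000814). Set against the other treated times, comparisons chosen after the values were seen, 6 h was lower than 4 h by 3.99 (change −3.99 ± 0.46, limma, adjusted p = 0.00287) and lower than 2 h (change −2.64 ± 0.46, adjusted p = 0.00301). The change at 6 h passed in each of the 10 other settings and without each library in turn, with values between −4.55 and −4.09 across the left-out libraries.

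Hsp90ab1, the constitutive cytosolic Hsp90, was not called in any contrast of rank score. It stood at ranks 584 and 479 in untreated WT and 1373 and 681 in untreated KO, and after R837 at 118 to 1568 with a median of 310. The best ranks were 197 and 118 in KO at 6 h. The change of Hsp90ab1 over all treated libraries was 0.92 ± 0.50 and did not pass (limma, adjusted p = 0.17), with overlap between the groups. KO exceeded WT at 6 h by 1.82 ± 0.87, which did not pass either (adjusted p = 0.393).

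**Figure D2:**
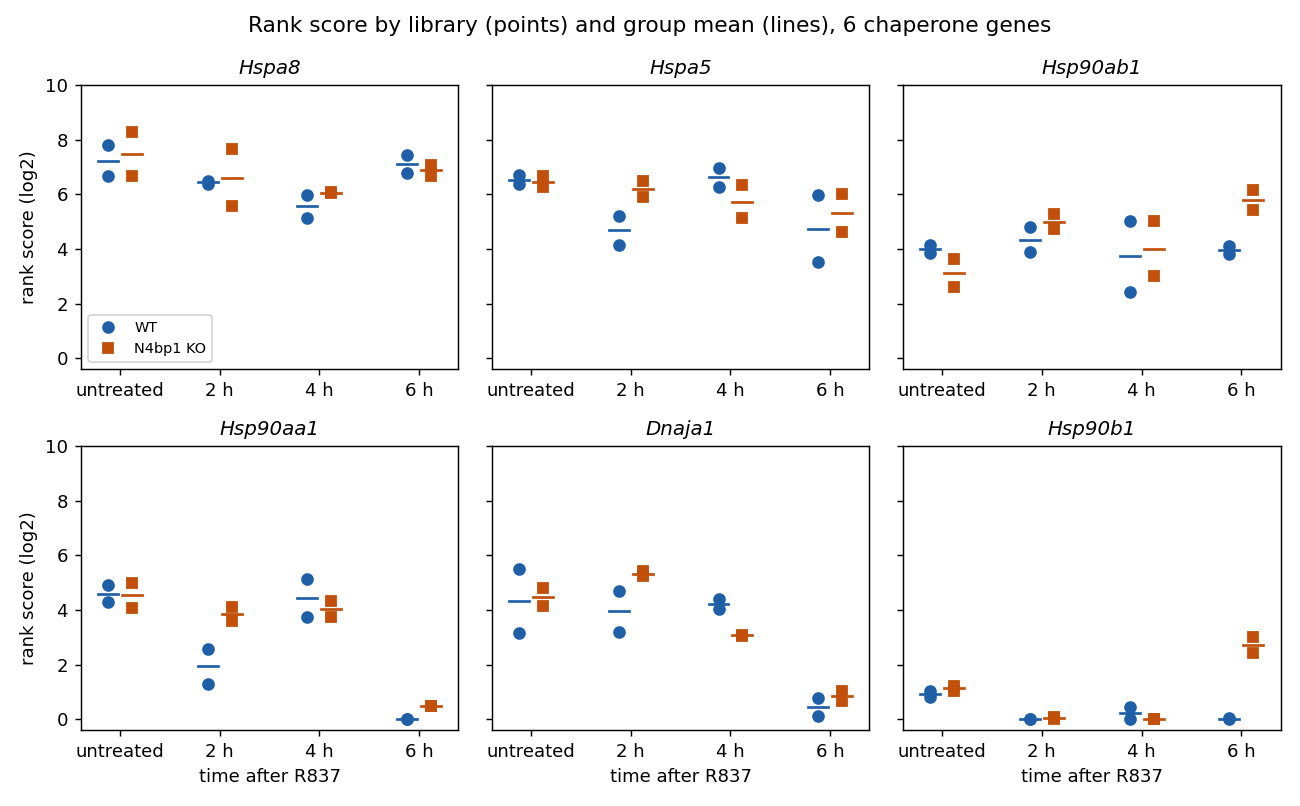
Rank score (log2, vertical axis) of 6 chaperone genes in each library (circles WT, squares N4bp1 KO) and the mean of each group of 2 (lines), by time after R837 (horizontal axis). Hspa8 and Hspa5 stay high, Hsp90aa1 and Dnaja1 are lowest at 6 h in both genotypes, and Hsp90b1 is above 2 in the KO libraries at 6 h and near 0 in WT.

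Hsp90b1 encodes GRP94, the Hsp90 of the endoplasmic reticulum, which folds Toll-like receptors and integrins. It was the 1 chaperone gene called between genotypes. In untreated macrophages Hsp90b1 stood at ranks 4812 and 4120 in WT and 3630 and 4067 in KO. At 2 h only replicate 1 of KO held a summit (rank 7990), and at 4 h it was found at 6188 in replicate 2 of WT and at 8319 in replicate 1 of KO. The lists as deposited also held it at 4 h past the cut, at 8598 in replicate 1 of WT and 9377 in replicate 2 of KO. At 6 h Hsp90b1 stood at 8094 and at no summit in WT and at 1577 and 1037 in KO. The KO libraries at 6 h were above all 14 others.

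The difference between KO and WT in Hsp90b1 at 6 h was 2.69 ± 0.40 (SE, 2 against 2 libraries, limma, adjusted p = 0.00636). It was 2.39 without replicate 2 of KO at 6 h, the library that stood apart (adjusted p = 0.00594), and no left-out library ended the call. With only the 4 libraries at 6 h in the fit the same difference did not pass (limma, adjusted p = 0.711). The shortened lists at 6 h placed a summit at 4386 and 2693 genes in WT and at 4724 and 5885 in KO. Of all treated libraries, 2693 was the lowest number and 5885 the highest. What this unequal cover did to the difference was not tested. At this time 1 of 56 tested chaperone genes was higher in KO and 0 lower, against 1.13% and 0.189% of all genes. The response at 6 h in KO minus that in WT was 2.48 ± 0.56 for Hsp90b1 and did not pass (limma, adjusted p = 0.08), so a difference in the response to R837 was not shown.

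Over both genotypes Hsp90b1 fell at 2 h (limma, adjusted p = 0.0177), from a mean rank score of 1.02 in untreated libraries to 0.02 (SE of the difference 0.28), and also at 4 h (change −0.91 ± 0.28, adjusted p = 0.0304). It was higher at 6 h than at 2 h by 1.35 ± 0.28 (adjusted p = 0.00907) and than at 4 h by 1.26 ± 0.28 (adjusted p = 0.0316), means that the KO libraries carry. The call at 4 h was lost without replicate 1 of WT or either KO library at 4 h. The call of 6 h against 4 h was lost for 7 left-out libraries, namely all 4 WT libraries at 2 h and 6 h, replicate 1 of WT at 4 h and both KO libraries at 4 h (highest adjusted p = 0.0813). Without the 1 kb flank neither fall passed (adjusted p = 0.478 for the earlier time and 0.68 for the later). Each of the 10 summits also lay in the region of Ttc41, and all lay within 1 kb of the Hsp90b1 start, from 803 bases before to 66 after it. Without shared summits the gene has no value.

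No other chaperone gene was called between KO and WT, by limma with Benjamini-Hochberg adjustment, which with 2 libraries a group does not show that they were equal. In untreated macrophages 0 of 56 genes were higher and 0 lower (all genes 0.649% and 0.72%), and 4 had an unadjusted p under 0.05. At 2 h the counts were 0 and 0 (all genes 0.0118% and 0.059%), with 5 at an unadjusted p under 0.05. At 4 h they were 0 and 0 (all genes 0.165% and 0.236%), with 3. Over the 3 treated times they were 0 and 0 (all genes 0.448% and 0.295%), with 3. The response to R837 was called different between genotypes at 0 genes in either direction (all genes 0.555% and 0.378%), with 3 at an unadjusted p under 0.05. For the response at 6 h, a contrast added after the values were seen, the counts were also 0 (all genes 0.307% and 0.0708%), with 5. The smallest unadjusted p at 2 h belonged to Hspb9, a small heat shock protein of the testis, at −2.99 ± 0.65 (limma, adjusted p = 0.188). Its ranks at 2 h were 1731 and 463 in WT, and in KO none and 6040. Other settings gave 0 to 2 genes in these contrasts, and left-out libraries 0 to 3.

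Of the 29 J-domain genes tested, 0 rose in rank score over all treated libraries and 9 (31%) fell, a share near the 29.4% of all genes. Dnaja1, a J-domain partner of the cytosolic Hsp70, lies at chr4:40722468-40734965. Its best summit stood at ranks 946 and 186 in untreated WT and 472 and 300 in untreated KO. At 2 h the ranks of Dnaja1 were 323 and 907 in WT and 194 and 224 in KO, at 4 h 511 and 402 in WT and 992 and 1006 in KO. At 6 h they were 4893 and 7791 in WT and 4103 and 5280 in KO. The 4 libraries at 6 h lay below all 12 others, and the 2 h libraries lay within the untreated range.

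Dnaja1 fell at 6 h by 3.75 in rank score, with an SE of 0.53 (limma, adjusted p = 0.000245), and by 1.42 over all treated libraries (change −1.42 ± 0.43, adjusted p = 0.0211). The change at 2 h was 0.24 ± 0.53 (limma, adjusted p = 0.772) and that at 4 h −0.76 ± 0.53 (adjusted p = 0.306), and neither passed. At 6 h the gene was lower than at 4 h (change −2.99 ± 0.53, limma, adjusted p = 0.0133) and than at 2 h (change −4.00 ± 0.53, adjusted p = 0.00062). The best summit lay in the region of Aptx, which faces the same promoter, in 13 of 16 libraries and in that of Smu1 in 1. With shared summits left out the change of Dnaja1 at 6 h was 0.31 (adjusted p = 0.742), so the fall rests on summits that Dnaja1 shares with a neighbour. Over all treated libraries the call was lost without replicate 2 of WT or of KO in the untreated group.

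The summits of Dnaja1 also differed between times in number and position. Each untreated library held 1 summit in the region, 51 to 130 bases past the first annotated start. At 2 h the WT libraries held 4 and 5 summits and the KO libraries 2 and 4. Those past the first kb stood at 11683 and 9368 bases from the start in replicate 1 of WT, at 12120 and 9605 in replicate 2, at 13109 in replicate 1 of KO and at 13143 and 12263 in replicate 2. The gene is about that long, so these lie in its later part or past its end. At 4 h each library again held 1 summit, and at 6 h they held 2 and 1 in WT and 2 and 2 in KO. At 6 h no library had the summit at 51 to 219 bases that the other 12 shared, and the summits near the start lay at 639 and −252 in replicate 1 of WT, −303 in replicate 1 of KO, and −217 and 797 in replicate 2 of KO. Replicate 2 of WT held its single summit at 12249.

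The number of summits was tested as log2 of the number plus 1, by time only after the values were seen. For Dnaja1 it rose at 2 h by 1.20 ± 0.17 (SE, limma, adjusted p = 0.000776), with no overlap between the 4 treated and the 4 untreated libraries, and by 0.55 ± 0.14 over all treated libraries (adjusted p = 0.015). Since the best summit lay in the region of Aptx in 13 libraries and of Smu1 in 1, some of the summits counted may belong to these neighbours. The number with shared summits left out was not tested. Hsp90ab1 was the other chaperone gene to rise in number. Its untreated libraries held 2, 3, 1 and 2 summits, those at 2 h 5, 4, 4 and 2, those at 4 h 2, 2, 2 and 1, and those at 6 h 4, 5, 3 and 3. The rise of Hsp90ab1 was 0.66 ± 0.21 at 2 h (limma, adjusted p = 0.0449) and reached 0.68 ± 0.21 at 6 h (adjusted p = 0.0458), and the groups overlapped at both times.

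In Hsp90ab1 the summit beyond the lower-numbered end of the gene (chr17:45567778-45573261) differed most in rank, which was noticed after the values were seen and was not tested. In untreated libraries it stood at ranks 4948 and 6396 in WT and at 4518 in replicate 2 of KO, with none in replicate 1. At 2 h it stood at 333 and 614 in WT and at 315 and 318 in KO, above all untreated libraries. At 4 h the ranks were 1749 and 1527 in WT and 587 in replicate 1 of KO. At 6 h they were 1211 and 787 in WT and 2167 in replicate 2 of KO. In replicate 2 of KO at 2 h this summit, at rank 318, was the best of the gene. The best summit of Hsp90ab1 lay in the region of Slc35b2 in 1 of 16 libraries. The summit beyond this end, which is also part of the numbers above, may therefore not belong to Hsp90ab1. Hspa8, with 2 or 3 summits in untreated libraries and 1 to 5 after R837, did not pass.

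**Figure D3:**
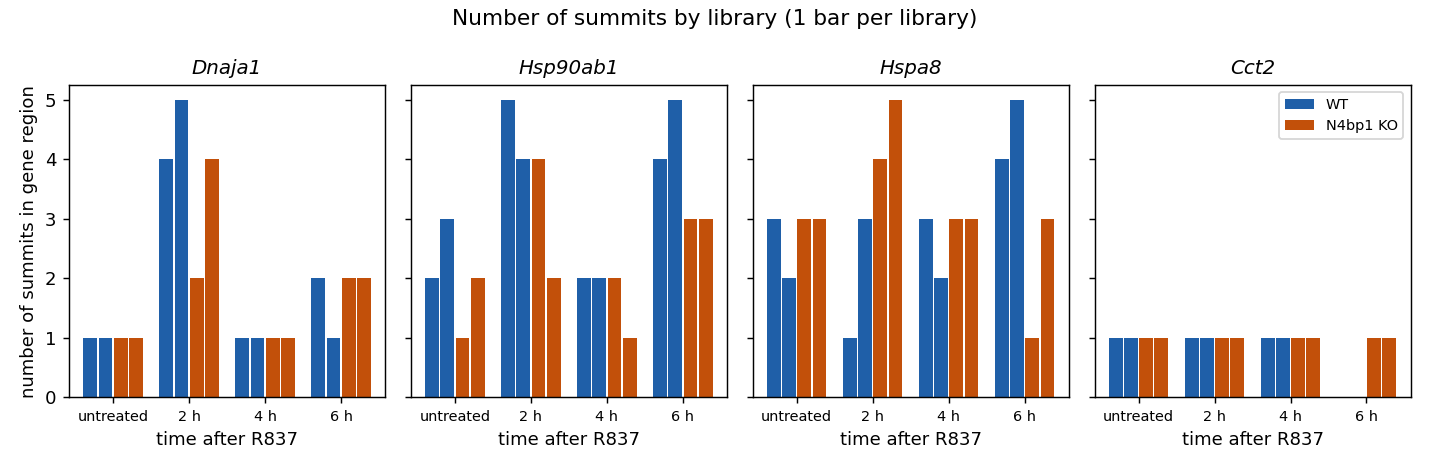
Number of summits in the gene region (vertical axis) for 4 chaperone genes, 1 bar per library, by genotype (colour) and time after R837 (horizontal axis). Dnaja1 rises from 1 summit in each untreated library to 2 to 5 at 2 h, and Cct2 has 1 in every library except both WT libraries at 6 h.

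By number of summits over all treated libraries 1 chaperone gene rose and 6 fell, against 7.16% and 21.6% of all genes. At 2 h 2 rose and 8 fell (all genes 6.78% and 22.1%), at 4 h 0 and 2 (5.32% and 13.7%) and at 6 h 1 and 9 (6.18% and 19.5%). Most of the falls went from 1 summit to none. Dnajc27, for example, held 1 summit in each untreated library and 0 in all 8 shortened lists at 2 h and 6 h. In the lists as deposited it stood at 2 h at 8553 in replicate 2 of WT and at 11709 and 8922 in KO. At 6 h it stood there at 14494 in replicate 2 of KO, so part of these absences came from the cut. Where replicates hold the same small number the spread is close to nil, so such calls rest on few values.

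Over both genotypes and all 3 times, 0 of the 56 chaperone genes rose in rank score after R837 and 12 (21.4%) fell, while 5.77% of all genes rose and 29.4% fell. The median change was −0.38 for the chaperone genes and −0.33 for all genes tested. In the shortened lists the share of falls was below that of all genes, a difference that was not tested. At 2 h 0 rose and 10 fell (all genes 4.84% and 24.1%), at 4 h 0 and 6 (5.71% and 19.7%) and at 6 h 0 and 11 (6.32% and 23.2%). Within WT 0 rose and 4 fell (3.76% and 18.4%), and within KO 0 rose and 6 fell (3.86% and 14.3%). Hsp90aa1 was called in both genotypes. These contrasts share the untreated libraries. The counts depended on how lists were cut. With the lists as deposited 0 of 56 rose and 31 of 56 fell over all treated libraries (all genes 5.72% and 53.6%). At 2 h 0 of 56 rose and 38 of 56 fell (3.12% and 68.7%). The shares of falls in the lists as deposited were near those of all genes. When genes were ranked against each other, so that every library held the same ranks, Hsp90aa1 alone fell over all treated libraries (change −1.32, limma, adjusted p = 0.00754), of 38 chaperone genes tested (all genes 8% higher and 12% lower). At 6 h that ranking gave 3 chaperone genes higher and 2 lower (9.61% and 11.7%).

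**Figure D4:**
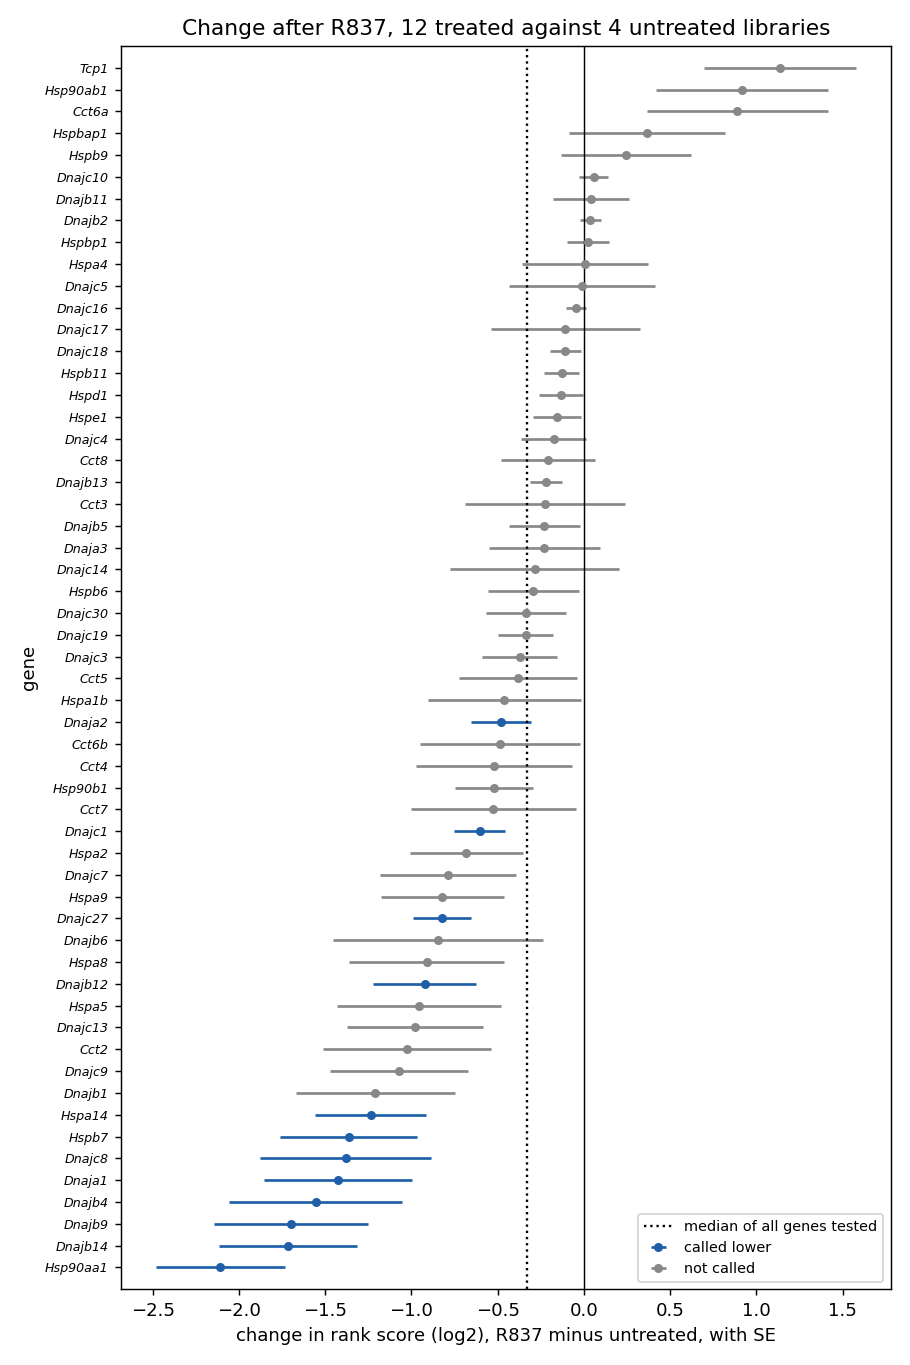
Change in rank score (log2, horizontal axis) between 12 treated and 4 untreated libraries for the 56 tested chaperone genes (rows), with the SE as bars and genes past the threshold in blue. Hsp90aa1 has the largest fall at −2.11, no gene above 0 passed, and the dotted line marks the median of all genes tested at −0.33.

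Besides Dnaja1, 4 Dnajb genes and 3 Dnajc genes fell over all treated libraries, and so did Dnaja2. Dnajb9 encodes ERdj4, a J-domain protein of the endoplasmic reticulum that acts with BiP. Its ranks were 3499 and 1041 in untreated WT and 1109 and 3481 in untreated KO. At 2 h Dnajb9 held a summit only in replicate 1 of KO (3857), at 4 h in all libraries (4910 and 6848 in WT, 6188 and 1576 in KO), and at 6 h in none. The lists as deposited held Dnajb9 at 6 h past the cut, at 14813 in replicate 1 of WT and at 21290 and 9370 in KO. The change of Dnajb9 at 6 h was −2.12 ± 0.55 (limma, adjusted p = 0.011) with no overlap, and over all treated libraries −1.70 ± 0.45 (adjusted p = 0.0104). Without replicate 2 of WT or replicate 1 of KO in the untreated group both calls were lost (adjusted p up to 0.08).

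Dnajb14, a J-domain protein anchored in the endoplasmic reticulum membrane, stood at ranks 3449 and 748 in untreated WT and 3451 and 1534 in untreated KO, and at 6 h held a summit in 1 of 4 libraries (rank 7428). It fell over all treated libraries with a change of −1.71 ± 0.40 (limma, adjusted p = 0.00502), and its summit lay in the region of H2az1 in each of 10 libraries. With shared summits left out the change of Dnajb14 was −0.30 (adjusted p = 0.139). Dnajb4, a cytosolic J-domain protein, stood at 651 and 462 in untreated WT and 921 and 317 in untreated KO, and at 623 to 3969 after R837. It fell with a change of −1.55 ± 0.50 (adjusted p = 0.0289), at a summit shared with Fubp1 in all 16 libraries, and with shared summits left out its change was −0.01 (adjusted p = 0.963). This call was lost without either untreated WT library, without replicate 2 of KO untreated, or without replicate 1 of WT at 2 h.

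The remaining falls were smaller. Dnajc8, a nuclear J-domain protein linked to splicing, fell with a change of −1.38 ± 0.50 (limma, adjusted p = 0.046), a call that was lost for 14 of the 16 left-out libraries. Its summit lay in the region of Atpif1 in each of the 11 libraries that held it and cannot be assigned to Dnajc8. Hspb7, a small heat shock protein of heart and muscle, fell with −1.36 ± 0.40 (adjusted p = 0.0177). Its best summit lay 2716 to 5102 bases from the annotated start, with a median of 4763, and within 1 kb of it in none of 13 libraries. The gene (chr4:141420779-141425310) ends near there, so this fall is not one at its start. Dnajb12 fell with a change of −0.92 ± 0.30 (adjusted p = 0.0298) and Dnajc27 with −0.82 ± 0.17 (adjusted p = 0.00207). The best summit of Dnajb12 lay 115 to 185 bases past its start in untreated libraries. It lay 19881 to 20336 bases past the start in replicate 1 of WT at 2 h and in the 3 libraries at 6 h that held one. Its change thus compares summits at different places. Dnajc1 (−0.60 ± 0.15) and Dnaja2 (−0.48 ± 0.17) had the smallest falls. Dnajc1 held a summit in 3 of 4 untreated libraries and in no treated one, and Dnaja2 in 3 untreated and 1 treated. Both met the condition for testing only through the untreated libraries, where they are high, so their falls are no support for a change. In the lists as deposited 10 libraries held Dnajc1 and 11 held Dnaja2, so part of these absences came from the cut. The calls of Hspb7 and Dnajb12 were each lost without either of 2 untreated libraries, replicate 1 of WT and replicate 1 of KO for Hspb7, and replicate 2 of WT and replicate 1 of KO for Dnajb12.

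Dnajb1, the Hsp40 partner of the inducible Hsp70, stood at 1351 to 3215 in untreated libraries and at 1733 to 8231 in the 11 treated libraries that held it, and its change of −1.21 ± 0.46 just missed the threshold (limma, adjusted p = 0.0567). Dnajc3, which encodes the endoplasmic reticulum co-chaperone p58IPK, stood at 2856 and 5886 in untreated KO and in 2 of 12 treated libraries, both KO (6334 and 3349). Its summits in untreated WT, at ranks 8577 and 16385 of the deposited lists, lay past the end of the shortened ones. The change of Dnajc3 was −0.37 ± 0.22 (limma, adjusted p = 0.203), and the difference between untreated KO and WT, 1.03, did not pass (limma, adjusted p = 0.306). Dnajc5, which encodes the cysteine string protein of vesicles, was found in every library at 698 to 3829, with a change of −0.01 ± 0.42 (adjusted p = 0.985).

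The CCT ring folds actin and tubulin. Its 10 genes by this rule are Tcp1, Cct2 to Cct8 with Cct6a and Cct6b, and Cct8l1, which held no summit. By rank score over all treated libraries 0 of the 9 tested genes rose and 0 fell, against 5.77% and 29.4% of all genes, and their median change was −0.38 against −0.33. By number of summits Cct2 fell (limma, adjusted p = 0.00138), since both WT libraries at 6 h held 0 summits and all others 1, so this call rests on those 2 libraries. The changes in rank score ranged from −1.03 for Cct2 (± 0.49, limma, adjusted p = 0.118, a change that passed without replicate 1 of WT at 2 h) to 1.14 for Tcp1 (± 0.44, adjusted p = 0.0596). Tcp1 stood at ranks 4374 and 3413 in untreated WT and 6637 and 4408 in untreated KO, and at 703 to 5353 after R837 with a median of 2114.5. Its summit lay also in the region of Mrpl18 in all 16 libraries.

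Cct3 and Cct6a had the best ranks among the CCT genes. Both stood at summits that also lay in another gene region in all 16 libraries, for Cct3 that of Tsacc. Cct3 stood at 466 to 1441 in untreated and 313 to 1986 in treated libraries, with a change of −0.22 ± 0.46 (limma, adjusted p = 0.73). Cct6a stood at 440 to 2680 in untreated and 204 to 1489 in treated libraries, with a change of 0.89 ± 0.52 (adjusted p = 0.202). In 15 of 16 libraries the best summit of Cct6a lay 59515 to 59686 bases from its annotated start, in the region of Sumf2, so its ranks cannot be assigned to Cct6a. Cct4 fell at 6 h with a change of −1.74 ± 0.55 (limma, adjusted p = 0.0315). Its ranks were 5048 and 1015 in untreated WT and 1613 and 880 in untreated KO, and at 6 h it was found in replicate 1 of WT (3406) and replicate 1 of KO (3724) alone. That call was lost without replicate 2 of WT or KO, untreated or at 6 h. Cct5, Cct6b, Cct7 and Cct8 had changes between −0.52 and −0.21, none of which passed.

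Hspd1 and Hspe1, whose head-to-head promoter lies on chromosome 1, shared their best summit in 6 libraries, which are all that held Hspe1 and all but 1 of those that held Hspd1. The untreated ranks of Hspd1 were none and 7774 in WT and 7848 and 4724 in KO, and no 2 h library held either gene. Their changes were −0.13 ± 0.13 (limma, adjusted p = 0.436) and −0.15 ± 0.14 (adjusted p = 0.413). Among the small heat shock proteins Hspb9 was higher at 6 h than at 4 h by 2.23 ± 0.46 (limma, adjusted p = 0.0253). Its ranks at 6 h were 1932 and 1414 in WT and 1856 and 1029 in KO, against 4628 and none in WT and none and 7788 in KO at 4 h. The summit lay in the region of Rab5c in 9 of 13 libraries, with a flank of 3 kb the change was 0.41 (adjusted p = 0.805), and 6 left-out libraries of these times ended the call, all but replicate 1 of WT at 4 h and replicate 1 of KO at 6 h. Between 6 h and 4 h 2 chaperone genes rose and 2 fell (all genes 1.06% and 1.97%), and between 6 h and 2 h 1 rose and 2 fell (4.38% and 3.93%), all of them named above.

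Genes that work with the chaperones were read from 2 lists. Of 34 co-chaperones and heat shock factors 26 were tested, and over all treated libraries 0 rose and 3 of the 26 fell, against 5.77% and 29.4% of all genes. Their median change was −0.27, against −0.33 for all genes. Ahsa1, which stimulates the ATPase of Hsp90, fell with a change of −2.89 ± 0.37 (limma, adjusted p = 8.63e-05). Its ranks were 1644 and 1069 in untreated WT and 495 and 597 in untreated KO, and from 2083 to none after R837, with no overlap. Stub1, the ubiquitin ligase CHIP that acts on chaperone clients, fell with −1.78 ± 0.40 (adjusted p = 0.00408), and Pfdn2, a prefoldin subunit that delivers actin and tubulin to CCT, with −1.56 ± 0.32 (adjusted p = 0.00247). Hsf1, the main heat shock factor, held a summit in 3 untreated and 3 treated libraries at ranks of 3918 to 8115, and Hsf2 in none.

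Of 23 genes of endoplasmic reticulum stress 22 were tested, and 1 (4.55%) rose and 6 (27.3%) fell over all treated libraries, shares close to the 5.77% and 29.4% of all genes. Their median change was −0.54. Herpud1, a ubiquitin-like protein of degradation at the endoplasmic reticulum, rose by 2.18 ± 0.49 (limma, adjusted p = 0.00396). Its ranks were 4100 and 5689 in untreated WT and none and 3829 in untreated KO, and at 4 h 789 and 363 in WT and 1093 and 360 in KO. At 2 h they were 4760 and 1375 in WT and 1269 and 519 in KO. At 6 h they were 1464 and 2970 in WT and 2784 and 991 in KO. The rise of Herpud1 was called at 2 h, at 4 h and within KO, but not at 6 h or within WT. Calr (calreticulin) and Canx (calnexin), the lectin chaperones of glycoproteins, fell by 1.73 (change −1.73 ± 0.37, adjusted p = 0.00301) and by 1.58 (change −1.58 ± 0.46, adjusted p = 0.0178). Calr stayed among the first 500 throughout, from 39 to 59 in untreated and 108 to 490 in treated libraries. Edem1, Ern1, Sel1l and Sdf2l1 were the other 4 that fell.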

How the data were processed

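Chromatin bound by RNA polymerase II was sequenced with single-end reads of 75 nt in 16 libraries, 2 in each of 8 groups. Reads were aligned with GSNAP to GRCm38 and peaks called with MACS2, per the submitters' processing notes, whose versions are not given in the sources used here. The deposited value of each summit is a −log10 p or q value (which of them is not stated) and was used for ranking alone. The input library was not used here.

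The 8394 best summits of every list were kept, and a gene's rank was that of its best summit within the gene or 1 kb to either side. The rank score was log2 of (8394 + 1)/rank, and 0 without a summit. The 8475 genes found in 2 or more of the 16 lists entered a linear model of the 8 groups (limma 3.58.1, R 4.3.3), with p-values adjusted by the Benjamini-Hochberg method over all genes tested and a threshold of 0.05. The fit was also run on simulated data with planted changes and less noise than these data, so that run does not show how well it performs here. Other steps used Python 3.11.15, pandas 2.3.3, numpy 2.4.6 and matplotlib 3.10.9.

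The gene set, the lists of co-chaperones, endoplasmic reticulum stress genes and cell markers, and the tests were chosen with earlier results of these data known. Named by rule were the well-known members (Hspa1a, Hspa1b, Hspa8, Hspa5, Hspa9, Hspa4, Hsph1, the Hsp90 genes, Hspb1, Hspd1, Hspe1, Dnaja1, Dnajb1, Dnajb9, Dnajc3 and the CCT genes), the 10 largest falls over all treated libraries and members called between genotypes. Hspb9, Dnajc5, Dnajc1, Dnaja2 and the genes named from the 2 further lists were chosen after their values were seen. The search for the endoplasmic reticulum stress element and the description of summit positions were added after values were seen. Same-numbered libraries of WT and KO correlated at 0.0329 (untreated), 0.0371 (2 h), −0.0319 (4 h) and −0.110 (6 h) in their deviations from group means, so the numbers were not taken to pair libraries. Alternatives were the lists as deposited, 4000 best summits, no flank or 3 kb, 1 rank per gene, shared summits left out, no filter or at least 4 lists, a replicate block, a fit of the compared groups only, and leaving out each library. Promoters of Hspa8, Hsp90aa1, Hsp90ab1, Hspa9, Hspa13, Hspb2, Cct4, Dnajc2, Dnajc5, Dnajc5b, Dnajc11, Dnajc12, Dnajc18, Dnajc22 and Dnajc30 were not used here.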

Additional observations from a re-analysis of the deposited data

How the results depend on the processing

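A rank shows a gene's place in its list and not an amount of polymerase, the depth is unknown, and treated lists covered fewer genes. With 2 libraries a group, calls of single genes often rested on 1 library. Of 1646 single-gene values under other settings, 1297 kept their direction and side of the threshold, 290 no longer passed, 24 newly passed and 35 reversed. The cause of these changes was not tested.

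Counts of chaperone genes called are given with the share of all genes called under the same setting, both directions together, and were falls unless stated. Over all treated libraries (12 called) the lists as deposited gave 31 (59.3% of all genes), the 4000 best summits 7 (29.3%), no flank 7 (30.9%), 1 rank per gene 1 (20.0%) and leaving out shared summits 7 (35.9%). At 2 h (10 called) these settings gave 38 (71.8%), 4 (23.4%), 6 (24.8%), 0 (17.8%) and 6 (29.5%). At 4 h (6 called) the 4000 best summits gave 3 (23.3%), no flank 1 (23%), 1 rank per gene 0 (17.0%), leaving out shared summits 3 (27.2%) and the compared groups only 3 (18.6%). At 6 h (11 called) the deposited lists gave 19 (41.9%), the 4000 best summits 6 (1 higher, 26.8%), no flank 9 (2 higher, 27.0%), 1 rank per gene 5 (3 higher, 21.3%), leaving out shared summits 7 (30.8%) and the compared groups only 7 (20.8%). In WT (4 called) the deposited lists gave 27 (53.8%), the 4000 best summits 2 (18.9%) and 1 rank per gene 1 (12.1%). In KO (6 called) the 4000 best summits gave 3 (17.3%), no flank 2 (17.5%) and 1 rank per gene 2 (1 higher, 12.2%).

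KO against WT in untreated cells (0 called) gave 2 higher with the 4000 best summits (2.09%) and 1 higher without the filter (1.65%). At 6 h (1 called) the deposited lists gave 4 higher (12.7%), no flank 2 higher (1.38%), leaving out shared summits 0 (1.47%) and the compared groups only 0 (0%). Over all treated times (0 called) the deposited lists gave 2 higher (7.33%) and 1 rank per gene 1 higher (0.899%). The response gave 1 lower with the 4000 best summits (1.41%), and the response at 6 h 1 higher with these (1.3%) or without the filter (1.27%). For 6 h against 4 h (4 called), leaving out shared summits gave 1 (3.22%) and the compared groups only 2 (0.873%). For 6 h against 2 h (3 called), the deposited lists gave 10 (8 higher, 16.5%) and leaving out shared summits 1 (9.03%). By number of summits the deposited lists gave 11 over all treated libraries (38.2%), 21 at 2 h (49.9%) and 4 at 4 h (1 higher, 20.7%).

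Leaving out each library in turn gave 5 (without replicate 2 of WT untreated) to 14 genes over all treated libraries, 2 (without replicate 2 of WT at 2 h) to 12 at 2 h, 1 (without replicate 1 of KO at 4 h) to 8 at 4 h, and 5 (without replicate 2 of WT, untreated or at 6 h) to 12 at 6 h. It gave 1 to 7 in WT and 3 to 7 in KO. For KO against WT it gave 0 to 3 untreated, 0 to 1 at 2 h, 0 to 1 at 4 h, 1 to 3 at 6 h and 0 to 1 over all treated times. For the response it gave 0 to 1, for the response at 6 h 0 to 2, for 6 h against 4 h 2 to 6 and for 6 h against 2 h 3 to 6. By number of summits it gave 5 to 12 over all treated libraries, 6 to 13 at 2 h, 2 to 4 at 4 h and 7 to 12 at 6 h.

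With the replicate block, whose pairing the labels do not establish, 11 genes were called over all treated libraries, 9 at 2 h, 5 at 4 h, 10 at 6 h, 5 in WT, 5 in KO, and 1 for KO against WT at 6 h. The correlations of same-numbered libraries ranged from −0.110 to 0.179.

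Changes over all treated libraries that reversed were those without a flank for Cct3 (0.67), Cct5 (0.03), Cct6b (0.36), Hsp90b1 (0.19), Hspa4 (−0.54) and Hspa9 (0.17). With 1 rank per gene they were those of Cct3 (0.21), Cct5 (0.09), Cct6b (0.14), Cct7 (0.16), Cct8 (0.14) and Hsp90b1 (0.21). The 4000 best summits reversed Cct8 (0.10) and Hsp90b1 (0.24), the deposited lists Hspa4 (−0.47), and leaving out shared summits Dnaja1 (0.71, and 0.31 at 6 h). By number of summits the sign differed for Cct3 (0.05), Cct6a (−0.15), Dnaja1 (0.55), Hspa5 (0.19), Hspa8 (0.05) and Tcp1 (−0.10). With 1 library left out, the change of Cct4 ranged from −1.10 to 0.06 (without replicate 2 of WT untreated), of Hspa1b from −0.97 to 0.04 (without replicate 1 of WT untreated), of Hspd1 from −0.32 to 0.05 and of Hspe1 from −0.34 to 0.03 (both without replicate 2 of KO untreated), and of Hspa4, at 0.00, from −0.12 to 0.13.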
